A study of Mus musculus with 6 samples.

Results

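The tumour necrosis factor receptor-associated factors (TRAFs) were followed in RNA sequencing counts of C2C12 myotubes given RANKL or vehicle. The genes were taken by symbol, as every row of the raw count table named Traf followed by 1 digit, whatever its values. This gave 7 of the 12625 genes in the table: Traf1, Traf2, Traf3, Traf4, Traf5, Traf6 and Traf7, all of which passed the filter on low counts. C2C12 is a mouse myoblast line whose cells fuse into multinucleated myotubes. Per the labels, myotubes at day 5 of differentiation received recombinant mouse RANKL at 100 ng per ml for 72 h (3 libraries), and the control libraries (3) are labelled as given vehicle, with no other agent or genotype named in either group. The labels do not say whether replicates came from separate cultures, so the p-values cover the spread among these 6 libraries, and that spread may be technical.

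TRAF proteins carry signals from receptors of the TNF receptor superfamily, and in part from Toll-like and interleukin receptors, into the cell. RANK, the receptor of RANKL, has no enzyme activity of its own and recruits TRAFs through short motifs in its tail, with TRAF6 the member best known for its part in osteoclast formation. Most members pair an N-terminal RING and zinc fingers with a C-terminal TRAF domain that grips the receptor, while TRAF1 lacks the RING and TRAF7 carries WD40 repeats in place of the TRAF domain. TRAF2 and TRAF3 also hold the kinase NIK in a complex with the ubiquitin ligases cIAP1 and cIAP2, which marks NIK for degradation and so restrains the non-canonical branch of NF-kB.

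The library totals lay between 32732604 and 39677999 counts. Counts of each member ran from 10 to 24 per library for Traf1 and from 157 to 268 for Traf5, and were at least 1257 in every library for the other 5. The differentiated state was checked with 12 markers of fused myotubes, all measured, whose summed level was 27841 to 28395 counts per 1000000 (CPM) under vehicle and 25282 to 26249 under RANKL. Myh3, the embryonic myosin heavy chain, alone had 7769 ± 193 CPM under vehicle (mean ± SD, n = 3). Of 13 macrophage and osteoclast markers 4 were measured, with a summed level of 20.1 to 22.5 CPM under vehicle and 21.9 to 24.1 under RANKL, and the defining markers Adgre1, Csf1r and Ptprc were not among the genes analysed here. Nfatc1, a transcription factor, made up most of this sum, with 16.6 ± 1.58 CPM under vehicle and 16.8 ± 0.683 under RANKL. The other 3 were Cd68 (0.534 ± 0.139 against 0.835 ± 0.375 CPM), Itgam (0.756 ± 0.0974 against 1.05 ± 0.283) and Cd14 (3.62 ± 0.290 against 4.43 ± 0.242), and the median log2 fold change of the 4 was 0.39. None of the 4 passed by edgeR, DESeq2, limma-voom or limma-trend, and Cd14 alone had an unadjusted edgeR p under 0.05 (0.0209, adjusted 0.105).

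Of the 4 TRAF genes with the smallest p-values Traf2 and Traf5 rose, Traf4 fell and Traf3 did not pass the test. A missed threshold does not show that Traf3 differed in response from Traf2 or Traf5. The sequences upstream of these 4 genes are shown so that they can be read side by side. They are RefSeq promoter entries of the build GRCm38.p6, 5′ to 3′ on the gene's strand, ending at the base before the annotated start site (Traf4 ends 40 bases before it, since GENCODE places an exon nearer). Capitals mark a kB motif, the binding sequence of NF-kB, searched as GGG, any 2 bases, TT, any base and CC, and GC boxes, bound by Sp1, searched as GGGCGG, both on either strand. The stretches lie at chr2:25546941-25547190 (Traf2, minus strand), chr1:192092600-192092849 (Traf5, minus strand), chr11:78165590-78165800 (Traf4, minus strand) and chr12:111166120-111166369 (Traf3, plus strand).
Traf2: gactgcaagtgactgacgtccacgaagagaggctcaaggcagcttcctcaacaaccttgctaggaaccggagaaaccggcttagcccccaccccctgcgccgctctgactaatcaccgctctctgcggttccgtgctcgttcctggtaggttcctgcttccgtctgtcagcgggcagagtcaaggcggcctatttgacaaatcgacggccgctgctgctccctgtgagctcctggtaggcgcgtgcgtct
Traf5: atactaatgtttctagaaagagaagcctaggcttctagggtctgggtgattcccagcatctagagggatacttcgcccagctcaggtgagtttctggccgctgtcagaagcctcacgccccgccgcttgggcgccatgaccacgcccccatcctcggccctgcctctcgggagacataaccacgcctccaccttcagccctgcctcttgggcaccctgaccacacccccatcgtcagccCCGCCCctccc
Traf4: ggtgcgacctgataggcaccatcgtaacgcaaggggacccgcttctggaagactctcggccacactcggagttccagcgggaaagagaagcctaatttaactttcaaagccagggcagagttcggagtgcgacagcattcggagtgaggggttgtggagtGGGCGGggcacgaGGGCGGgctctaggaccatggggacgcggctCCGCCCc
Traf3: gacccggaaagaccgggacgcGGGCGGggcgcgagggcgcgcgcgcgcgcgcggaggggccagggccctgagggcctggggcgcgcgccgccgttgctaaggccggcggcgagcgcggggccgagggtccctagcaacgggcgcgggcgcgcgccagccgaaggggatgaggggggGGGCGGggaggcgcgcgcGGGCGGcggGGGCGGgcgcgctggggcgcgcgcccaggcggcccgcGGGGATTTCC

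The kB motif stood in 1 of the 7 TRAF promoters over the 250 bases before the start site, that of Traf3, as ggggatttcc starting 10 bases before the start. Of 32851 RefSeq promoters of this length 4.11% held it. The promoters of Traf2, Traf5 and Traf4 held no match, which says only that these letters are not in the window. GC boxes were found in the promoters of Traf3 (4), Traf4 (4), Traf6 (2) and Traf5 (1), and in 32.7% of all promoters. The Traf4 box at position -29 from the start site lies outside the stretch printed above. The AP-1 motif TGANTCA, in 6.75% of all promoters, and the TATA box TATAAA, in 12.4%, had no match in any of the 7. The Traf3 window was 85.2% G and C, against 48% to 64.8% in the other 6. A match is a description of the sequence and not a measured binding site.

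Under RANKL Traf2 and Traf5 rose and Traf4 fell, while Traf1, Traf3, Traf6 and Traf7 did not pass the test. The changes were small: Traf5 rose 1.31-fold and Traf2 1.18-fold, and Traf4 went to 0.859 of its vehicle level. Of the 7 members 2 were called higher, against 5.35% of all genes tested, and 1 was called lower, against 7.5%. In either direction edgeR called 12.9% of all genes. Of those calls 41.7% were higher, and 63.1% with total count scaling, under which Traf2 and Traf5 were likewise called higher and Traf4 lower. Groups did not overlap in 4 members, Traf2, Traf3, Traf4 and Traf5, against 31.5% of all genes. These are bulk cultures, in which fewer cells of a type and less RNA per cell cannot be told apart.

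**Figure D1:**
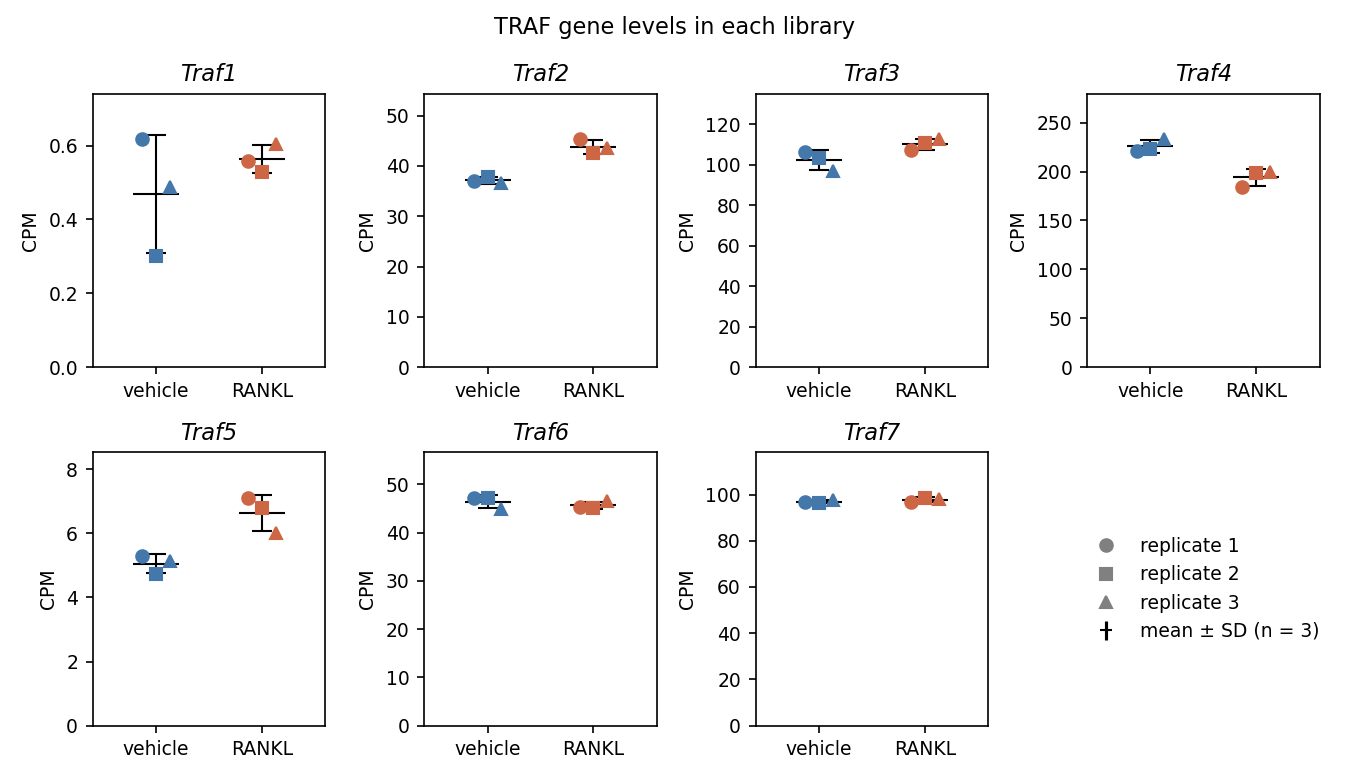
Counts per 1000000 (CPM, y axis, from 0) of the 7 TRAF genes in each of 3 vehicle (blue) and 3 RANKL (orange) libraries, with the mean ± SD as black bars. Traf2 and Traf5 lie higher in all 3 RANKL libraries than in any vehicle library and Traf4 lies lower, while the groups of Traf1, Traf6 and Traf7 overlap.

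Traf2, the adaptor that carries cIAP1 and cIAP2 to TNF receptors, had 37.0, 37.8 and 36.6 CPM in vehicle replicates 1, 2 and 3. It had 45.3, 42.5 and 43.6 CPM in RANKL replicates 1, 2 and 3. Each RANKL library was higher than each vehicle library, and the gap between the groups was wider than the spread within either. The log2 fold change was 0.24 ± 0.04 (SE), with a 95% interval from 0.15 to 0.33 and an adjusted p of 0.00182 by edgeR's quasi-likelihood test. Traf2 lies on chromosome 2 from 25517982 to 25546940 on the minus strand of mm10 and is protein-coding, with 10 exon blocks that overlap no exon of another gene.

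Traf5, a close relative of TRAF2 that acts beside it below several TNF receptors, was low in these cells. Its levels were 5.27, 4.72 and 5.15 CPM in vehicle replicates 1, 2 and 3 and 7.11, 6.79 and 6.01 CPM in RANKL replicates 1, 2 and 3. The groups did not overlap, with RANKL replicate 3 nearest to the vehicle libraries. The log2 fold change was 0.39 ± 0.10 (SE), with a 95% interval from 0.18 to 0.61 (edgeR adjusted p = 0.0176). Without vehicle replicate 2 it was 0.35 with an adjusted p of 0.0823, and without RANKL replicate 2 it was 0.38 with 0.061, so the call ended without either library while the direction stayed. Traf5 lies on chromosome 1 from 191997205 to 192092559 on the minus strand, and its exons share 65 bases with the microRNA gene Mir3473c on the same strand and 205 with the antisense gene Gm26879. Whether reads were counted by strand is not stated, which leaves the shared bases unassigned.

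Traf4, a member with no firm place in TNF receptor signalling that is better known from epithelial polarity, cell migration and TGF-beta signalling, had the most counts of the family. Vehicle replicates 1, 2 and 3 held 220.9, 223.2 and 233.2 CPM, and RANKL replicates 1, 2 and 3 held 184.4, 198.5 and 199.1 CPM. Every RANKL library lay below every vehicle library, and RANKL replicate 1 was the lowest. Traf4 fell by 0.22 on the log2 scale (SE 0.04), with a 95% interval of the log2 fold change from -0.30 to -0.14 (edgeR adjusted p = 0.00145). Traf4 lies on chromosome 11 from 78158499 to 78165589 on the minus strand, in 5 exon blocks that overlap no exon of another gene.

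Traf3, which bridges NIK to the TRAF2 complex and is itself degraded when receptors such as CD40 are engaged, had the smallest fold change of the 4 members whose groups did not overlap. It had 106.4, 103.6 and 97.0 CPM in vehicle replicates 1, 2 and 3 and 107.2, 110.6 and 112.7 CPM in RANKL replicates 1, 2 and 3. The groups did not overlap, but vehicle replicate 1 and RANKL replicate 1 nearly touched. The log2 fold change was 0.11 ± 0.04 (SE), and its adjusted p of 0.0889 by edgeR missed the threshold. With total count scaling the adjusted p was 0.0273 and without RANKL replicate 1 it was 0.0394, and over all 15 alternatives it ranged from 0.0273 to 0.304. Traf3 lies on chromosome 12 from 111166370 to 111267153 on the plus strand, with 13 exon blocks.

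Traf6, the member most closely tied to RANK and to Toll-like and interleukin 1 receptors, did not pass the test. Its levels were 47.2, 47.3 and 44.9 CPM in vehicle replicates 1, 2 and 3 and 45.4, 45.2 and 46.6 CPM in RANKL replicates 1, 2 and 3. The 95% interval of its log2 fold change ran from -0.11 to 0.06 (edgeR adjusted p = 0.757), so changes in RNA of the size seen for Traf2 or Traf5 lay outside it. The sign turned from -0.02 to 0.00703 with total count scaling. Traf6 lies on chromosome 2 from 101678429 to 101701669 on the plus strand.

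Traf7, a divergent member linked to the kinase MEKK3, was the steadiest of the family between replicates. It had 96.8, 96.2 and 97.6 CPM in vehicle replicates 1, 2 and 3 and 96.7, 98.7 and 97.9 CPM in RANKL replicates 1, 2 and 3. The coefficient of variation within groups was 0.716% and 1.03%, and the log2 fold change of 0.01 had a 95% interval from -0.05 to 0.08 (edgeR adjusted p = 0.84). Traf7 lies on chromosome 17 from 24508562 to 24527938 on the minus strand, and its exons share 267 bases with Rab26 on the same strand and 110 with Caskin1 on the opposite strand.

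Traf1, which lacks the RING and is known as an NF-kB target in lymphocytes, was near the lower edge of the table, at percentile 0.606 of all genes by vehicle CPM. Its counts were 24, 10 and 18 in vehicle replicates 1, 2 and 3 and 21, 18 and 20 in RANKL replicates 1, 2 and 3. The vehicle libraries spanned the RANKL libraries, and the 95% interval of the log2 fold change, from -0.39 to 0.87, took in both a fall and a rise larger than those of the members that passed (edgeR adjusted p = 0.654). A change of the size of Traf2 was not detectable at this depth. Traf1 lies on chromosome 2 from 34941750 to 34961772 on the minus strand.

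**Figure D2:**
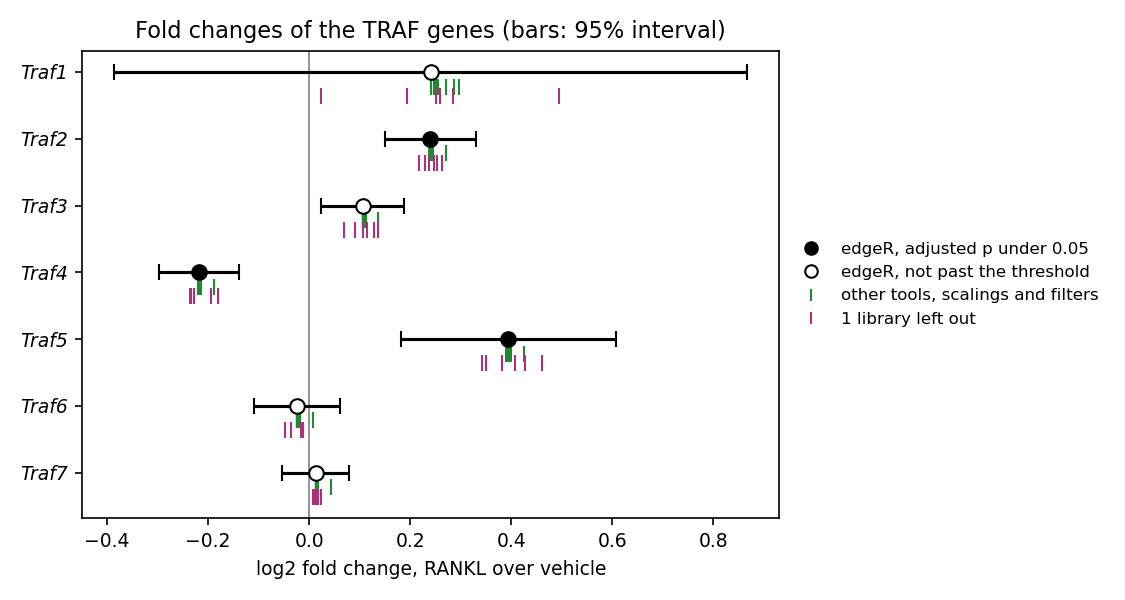
Log2 fold change of RANKL over vehicle (x axis) for the 7 TRAF genes by edgeR, with 95% intervals as bars and filled circles where the adjusted p was under 0.05. Green ticks give the other tools, scalings, filters and the replicate block, and purple ticks the fits without 1 library. The ticks of Traf2, Traf5 and Traf4 stay on 1 side of 0, and the interval of Traf1 spans -0.39 to 0.87.

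Levels were compared between members per kilobase, with the log2 values the authors deposited, read as log2 RPKM (CPM per kilobase of gene) and taken off the log scale. In vehicle libraries Traf4 stood highest with 74.9 ± 2.17 RPKM (mean ± SD, n = 3), followed by Traf7 with 35.4 ± 0.254, Traf3 with 14.3 ± 0.674, Traf2 with 12.1 ± 0.203, Traf6 with 7.52 ± 0.223, Traf5 with 2.42 ± 0.138 and Traf1 with 0.226 ± 0.0685. No neighbours in this order overlapped between their 3 vehicle libraries. The order was the same under RANKL, where Traf3 and Traf2 came closest, with 15.4 ± 0.389 and 14.3 ± 0.465 RPKM, and still did not overlap. The lengths behind these values, read back from the deposited tables, were shorter than the summed GENCODE exons, for instance 2.11 against 8.82 kb for Traf1, 2.09 against 4.57 kb for Traf5 and 2.73 against 5.87 kb for Traf7. All 7 ranks under vehicle were nonetheless the same with GENCODE lengths.

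Of the summed RPKM of the family, Traf4 took 51.0% ± 1.00 (SD, n = 3) under vehicle and 45.7% ± 1.04 under RANKL. The share of Traf2 was 8.25% ± 0.203 under vehicle and 10.2% ± 0.532 under RANKL, and that of Traf5 was 1.65% ± 0.0909 and 2.26% ± 0.230. The share of Traf3 was 9.74% ± 0.545 under vehicle and 10.9% ± 0.0911 under RANKL, and that of Traf7 was 24.1% ± 0.108 and 25.4% ± 0.313. In each of these 5 the libraries of the groups did not overlap, although Traf3 and Traf7 did not pass the test on counts. No background over all genes was computed for such shares, and by CPM the groups did not overlap in 31.5% of all genes. The shares sum to a whole, so a share also moves when the level of another member does. The summed RPKM was 147 ± 1.39 under vehicle and 141 ± 2.90 under RANKL, with all RANKL libraries (137 to 143) below all vehicle libraries (146 to 148).

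Count ratios of 2 members within a library need no library scaling, and they were compared for the 15 pairs of Traf2 to Traf7, with Traf1 left out for its few counts. Groups did not overlap in 13 of 15 pairs, against 30.1% of all pairs of genes without a 0 count. The pairs share members and so are not independent. The ratio of Traf4 to Traf5 fell most, from a log2 ratio of 5.48 ± 0.0890 (SD, n = 3) under vehicle to 4.87 ± 0.177 under RANKL. The ratio of Traf2 to Traf4 went from -2.60 ± 0.0598 to -2.15 ± 0.107, and that of Traf2 to Traf3, the partners in the NIK complex, from -1.46 ± 0.0591 to -1.33 ± 0.0772. Traf2 to Traf6 went from -0.32 ± 0.0290 to -0.06 ± 0.0525, so that the counts of Traf2 came near those of Traf6. The pairs that overlapped were Traf2 with Traf5 and Traf6 with Traf7. An exact two-sided permutation test gave p = 0.1 for each of the 13 pairs, the smallest that 3 against 3 libraries allow, and 0.115 after Benjamini-Hochberg adjustment over the 15, so no pair could pass the threshold.

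**Figure D3:**
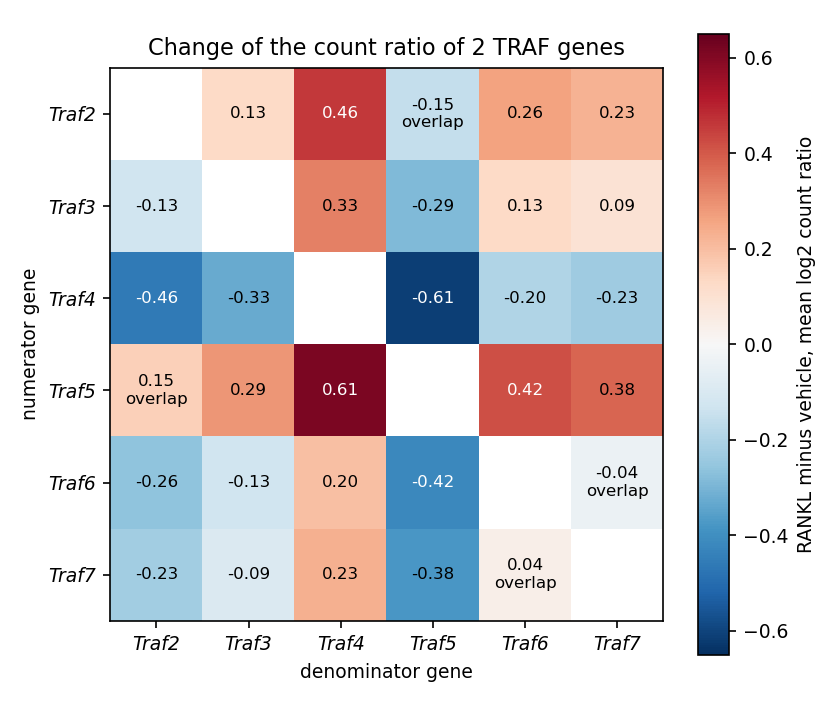
Change in the mean log2 count ratio, RANKL minus vehicle (colour scale and printed value), for each pair of Traf2 to Traf7, with the numerator gene in rows and the denominator gene in columns. The row of Traf4 is negative throughout, down to -0.61 against Traf5, and "overlap" marks the pairs Traf2 with Traf5 and Traf6 with Traf7, whose libraries overlapped between groups.

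Genes that work with the TRAFs were described from 8 lists that held 112 genes, of which 96 were measured. Of these, 13 rose (13.5%, against 5.35% of all genes) and 1 fell (1.04%, against 7.5%), and their median log2 fold change was 0.01 beside 0.00 for all genes. The lists were chosen with earlier results of these data known, so these shares are a description and not a test. Birc3 and Tnfrsf9 are in the deposited table only through their RANKL libraries: every vehicle library lay under 0.504 CPM by library total, the lowest value that the third-highest library of any gene in the table had. These 2 therefore had to differ, and their folds and p-values are given as a description. Without them 11 of 94 rose (11.7%) and 1 fell. The medians of 7 of the 8 lists lay between -0.02 and 0.08, and that of the NF-kB subunits, of which 3 of 5 rose, was 0.28.

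Among ubiquitin ligases and conjugating enzymes 2 of 14 rose, against 5.35% of all genes, and this count includes Birc3, which had to differ. Birc3, which encodes cIAP2 and is in the table only through its RANKL libraries, had 0.129, 0.24 and 0.19 CPM in the vehicle libraries and 0.584, 0.911 and 0.694 in the RANKL libraries, a 3.90-fold difference (log2 fold change 1.96 ± 0.34, edgeR adjusted p = 0.00169). Birc2, which encodes cIAP1, rose from 24.8 ± 0.618 to 30.3 ± 1.13 CPM (log2 fold change 0.29 ± 0.05, edgeR adjusted p = 0.00148). Both are ligases that bind TRAF2. The other 12 members did not pass, among them the linear ubiquitin ligase subunits Rnf31 (log2 fold change -0.01 ± 0.05), Rbck1 (-0.07 ± 0.04) and Sharpin (-0.03 ± 0.04), and Ube2n, the conjugating enzyme TRAF6 works with (-0.05 ± 0.04).

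Of 21 measured kinases below the TRAFs and their partner subunits 2 rose, against 5.35% of all genes, and the other 19 did not pass. The list counts Tab1, Tab2, Tab3 and Ikbkg, which are not kinases themselves, so of the 2 that rose only Map3k8 is a kinase. Map3k8 (TPL2), a kinase of the ERK branch, rose 1.93-fold, from 2.38 ± 0.129 to 4.59 ± 0.206 CPM (edgeR adjusted p = 0.000143). Ikbkg (NEMO), the regulatory subunit of the IkB kinase, rose from 87.9 ± 2.22 to 98.4 ± 3.89 CPM (edgeR adjusted p = 0.0105), a call that ended without vehicle replicate 2, and its exons overlap G6pdx on the opposite strand. Map3k14 (NIK), the kinase held by TRAF2 and TRAF3, averaged 35.9 ± 1.23 CPM in vehicle and 34.0 ± 1.27 CPM in RANKL libraries (log2 fold change -0.08 ± 0.05, edgeR adjusted p = 0.306). Map3k7 (TAK1), the kinase that TRAF6 activates, had a log2 fold change of 0.00 ± 0.03, and Chuk and Ikbkb, the catalytic IkB kinases, had 0.06 ± 0.04 and 0.02 ± 0.04.

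Among 12 measured receptors that signal through TRAFs, directly or by way of adaptors, 2 rose, against 5.35% of all genes. This count includes Tnfrsf9, which had to differ. Tnfrsf1b (TNF receptor 2), which recruits TRAF2 directly, rose 1.61-fold, from 32.4 ± 1.42 to 52.2 ± 2.98 CPM (edgeR adjusted p = 7.41e-07). Tnfrsf9 (4-1BB), the other gene in the table only through its RANKL libraries, had 16 counts over the vehicle libraries and 65 over the RANKL libraries, a log2 fold change of 2.05 ± 0.36 (edgeR adjusted p = 0.00202). Ltbr, the lymphotoxin beta receptor, and Tnfrsf12a, the receptor of TWEAK, did not pass, with log2 fold changes of -0.05 ± 0.04 and -0.10 ± 0.03. RANK itself (Tnfrsf11a) and Cd40 were looked for by symbol and had no row among the genes analysed, from which low genes had been removed before deposit.

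Of 12 measured helper proteins that bind TRAFs or work beside them 2 rose, against 5.35% of all genes. Tnip1 (ABIN1), which works with A20, rose from 111 ± 0.414 to 129 ± 4.72 CPM (edgeR adjusted p = 0.000907). Tank, a TRAF-binding scaffold, rose from 38.7 ± 0.835 to 43.1 ± 1.06 CPM (edgeR adjusted p = 0.0222). The call of Tank ended without vehicle replicate 1 or 3 and without RANKL replicate 2. Of 12 receptor-proximal partners 1 rose, against 5.35% of all genes. Ripk2, the kinase below NOD receptors, rose from 10.5 ± 0.224 to 17.1 ± 0.815 CPM (edgeR adjusted p = 8.99e-06), while Tradd (log2 fold change 0.02 ± 0.07) and Ripk1 (0.13 ± 0.05) did not pass. Of 13 deubiquitinases 1 rose and 1 fell, near the shares of all genes (5.35% higher and 7.5% lower). Tnfaip3 (A20), an inhibitor of NF-kB signalling that edits ubiquitin chains, rose 1.14-fold (edgeR adjusted p = 0.0162). Its call ended without vehicle replicate 2 (log2 fold change 0.17) and without RANKL replicate 2 (0.16), with the direction kept. Usp20 fell from 110 ± 3.37 to 98.6 ± 6.89 CPM (edgeR adjusted p = 0.0322), a call that 6 of 15 alternatives ended, among them total count scaling and leaving out RANKL replicate 1 or any vehicle replicate. Cyld, which removes chains that TRAFs build, had a log2 fold change of 0.04 ± 0.04.

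**Figure D4:**
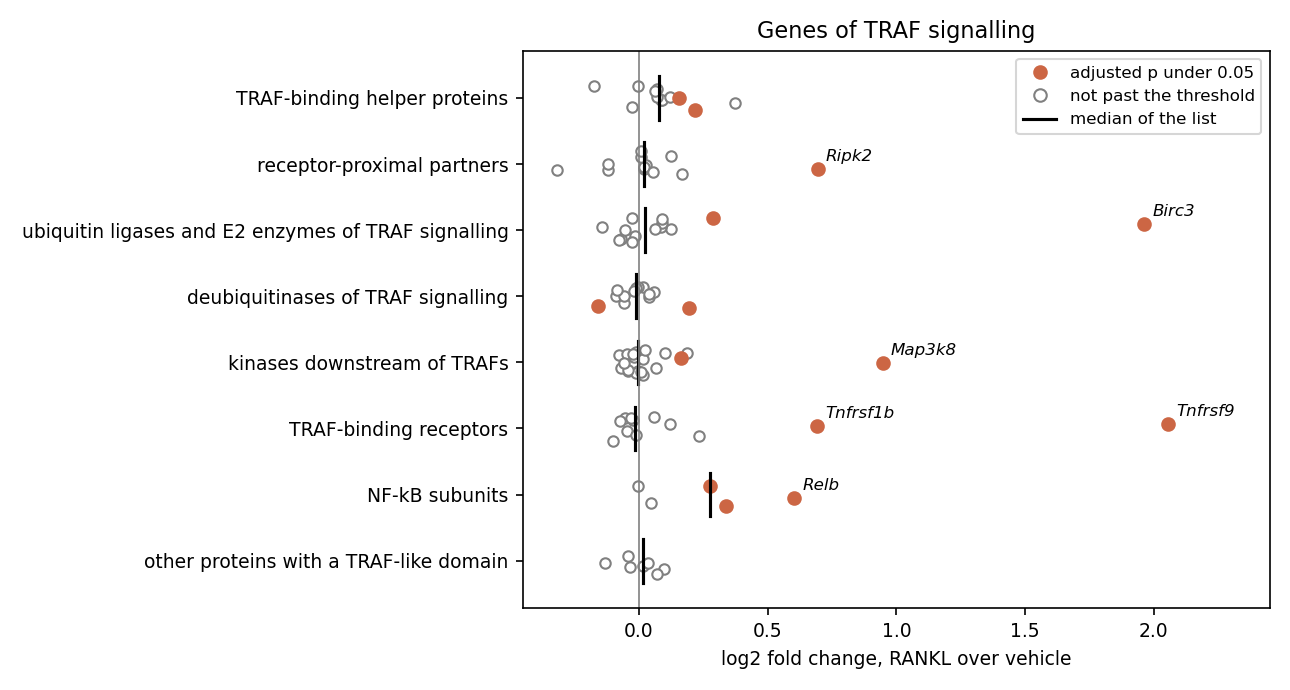
Log2 fold change of RANKL over vehicle (x axis) for the 96 measured genes of 8 lists of TRAF signalling, 1 point a gene, filled where the edgeR adjusted p was under 0.05, with the list's median as a black line. Filled points lie right of 0 except Usp20 among the deubiquitinases, and Birc3 and Tnfrsf9 lie farthest right.

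Of the 5 NF-kB subunits 3 rose, against 5.35% of all genes. These were the genes of both precursors, Nfkb1 and Nfkb2, and Relb, with log2 fold changes of 0.28 ± 0.03, 0.34 ± 0.03 and 0.60 ± 0.05. The edgeR adjusted p-values were 8.36e-05, 1.59e-05 and 4.63e-06. Rela and Rel did not pass, with 0.05 ± 0.04 and 0.00 ± 0.09. On the opposite strand the exons of Nfkb2 share 299 bases with Psd and 531 with AC114539.1. Of the 7 measured proteins outside the family that carry a TRAF-like domain, 0 passed edgeR's test, against 12.9% of all genes. An unadjusted p under 0.05 was found for 2 of them, while DESeq2 and limma-trend called 0 and limma-voom 1. Spop, a substrate adaptor of a ubiquitin ligase, had the smallest p there and was the gene that limma-voom called, with 208 ± 4.18 CPM under vehicle and 223 ± 3.16 under RANKL (edgeR adjusted p = 0.0521). Members of the lists named without passing the test, other than Spop, were chosen after their values were seen.

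Markers of other states moved with the groups too, and their counts stand beside 5.35% of all genes called higher and 7.5% called lower. Of 10 markers of cycling cells 9 rose, with a summed level of 109 to 118 CPM under vehicle and 150 to 180 under RANKL. RANKL replicate 1 had the highest of these sums, and it was also the RANKL library with the highest Traf2 and Traf5 and the lowest Traf4. Without it the log2 fold changes were 0.22 for Traf2, 0.34 for Traf5 and -0.18 for Traf4, each still past the threshold. Of the 12 myotube markers 6 fell, among them Myh3 and the skeletal actin Acta1. The call of Myh3 ended in 5 of 15 alternatives, among them total count scaling. The other 6 did not pass. Their log2 fold changes were 0.04 for Ckm, 0.05 for Tnnt3, 0.01 for Mymx and Myog, -0.09 for Mymk and -0.07 for Des. Of 7 genes listed as markers of unfused myoblasts 2 rose, and 2 fell, Itga7 and Ncam1. The summed level was 3235 to 3343 CPM under vehicle and 2838 to 2989 under RANKL. Itga7 (1995 CPM under vehicle) and Ncam1 (1046) make up most of this sum, so it follows these 2 genes and is no measure of unfused cells. Pax7 (0.729 CPM under vehicle), Myf5 (15.4) and Sdc4 (137) did not pass. The 2 that rose, named here after their values were seen, were the adhesion molecule Vcam1, from 52.0 ± 2.94 to 136 ± 14.2 CPM (edgeR adjusted p = 3.91e-09), and Cd34, from 25.1 ± 0.701 to 30.9 ± 1.37 CPM (edgeR adjusted p = 0.00133). Of 6 measured fibroblast markers 1 rose, Col3a1, and their sum was 4427 to 4680 CPM under vehicle and 4902 to 5481 under RANKL. Col3a1 alone (3728 CPM under vehicle) makes up most of this sum, which therefore follows that gene and is no measure of fibroblasts. Its call ended without vehicle replicate 2, and the other 5 markers did not pass. The part of all these markers in the changes of the TRAF genes was not tested.

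The genes of the table most like each TRAF gene that passed the test were found by the highest Pearson correlation of log2 CPM over the 6 libraries, among the 8993 genes that averaged 10 CPM or more. For Traf2 these were Unc5c, a netrin receptor (r = 0.995), and Dhx9, an RNA helicase (r = 0.995). For Traf4 they were Plcl1 (r = 0.999) and the heparan sulphatase Sulf2 (r = 0.998), and for Traf5 the transcription factor Cebpb (r = 0.995) and Ankrd1, a muscle ankyrin repeat protein (r = 0.993). The points share their libraries and the split into groups, so such values are a description of 6 libraries and carry no p.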

How the data were processed

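Raw counts per gene symbol were deposited by the authors for 3 vehicle and 3 RANKL libraries of C2C12 myotubes, read in paired ends of 75 bases per the labels. The submitters' processing notes name STAR, FastQC, edgeR and mm10 without roles. For the counter, the annotation and the handling of strand, the sources used here give nothing. Low genes had been removed before deposit, by a rule not stated: 0.504 CPM was the lowest value that any gene's third-highest library held. The count table held 12625 genes, and 4708 blank lines were left out. The second deposited table holds log2 values, read from the values as log2 RPKM with a scaling factor per library, since its header names no unit.

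All genes were fitted with edgeR 4.0.16 in R 4.3.3 (TMM scaling, filterByExpr, which removed 0 genes, quasi-likelihood F test, Benjamini-Hochberg adjustment, threshold 0.05). CPM values use scaled library totals, and SE is the log2 fold change divided by the square root of F. Alternatives were DESeq2 1.42.0, limma 3.58.1 (voom on counts, trend on the deposited log2 values), other scalings and filters, a replicate block and each library left out. Counts of replicates differed beyond sampling noise (chi-square per gene of 3.39 to 9.52), so all 6 libraries were kept. Gene positions come from GENCODE M21 and promoters from RefSeq (GRCm38.p6), with all 7 TRAF genes matched. The edgeR, limma-voom and DESeq2 fits were tested on simulated counts, and the other steps were not.

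The members and lists were chosen with earlier results of these data known. Traf1 met the selection rule beside the 6 genes first listed. Each list gave the text the called genes with the lowest p (at most 3), or its lowest p where none was called. Each marker list gave its 2 genes of highest CPM, of which the text uses some. Each called TRAF gene gave the 2 genes most correlated with it.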

Additional observations from a re-analysis of the deposited data

How the results depend on the processing

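Traf2 and Traf4 passed the test in all 15 alternatives, with log2 fold changes of 0.22 to 0.27 and -0.24 to -0.18, and Traf5 in 13 of 15, with 0.34 to 0.46. Traf5 was not called without vehicle replicate 2 (0.35) or RANKL replicate 2 (0.38). Traf3 was called with total count scaling (0.14) and without RANKL replicate 1 (0.13), and lay between 0.0686 and 0.136 with 1 library left out. Traf6 turned to 0.00703 with total count scaling, which moved the median of all genes by 0.03 on the log2 scale. That scaling gave 1070 genes higher and 626 lower, 63.1% of calls higher, against 676 and 947 (41.7%) with TMM. With 1 library left out, 373 to 746 genes were higher and 537 to 880 lower, the counts moving most without vehicle replicate 1 (426 and 561), vehicle replicate 2 (373 and 537) and RANKL replicate 2 (468 and 596). The cause of these shifts was not tested.

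Of the genes in the 8 lists, 12 to 15 were called with 1 library left out. Lower were 0 with total count scaling, 0 with limma-trend on the deposited log2 values and 0 to 2 with 1 library left out. Nfatc1, a marker measured at 16.6 CPM under vehicle, had a log2 fold change of 0.02, which ranged from -0.0584 (vehicle replicate 3 left out) to 0.0713 (vehicle replicate 1 left out).

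The main fit did not take same-numbered libraries as pairs. Deviations from the group means correlated at 0.118, 0.0534 and 0.0178 for same-numbered libraries. For libraries of other numbers the correlations ran from -0.102 to 0.0505. With 3 libraries per group these values do not settle whether the numbers pair samples. With the replicate block 730 genes were higher and 1008 lower, against 676 and 947 without it. The log2 fold changes of Traf2, Traf4 and Traf5 were then 0.24, -0.22 and 0.39, with no TRAF call changed. Depth limited Traf1, with 10 to 24 counts per library.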
